A study of Homo sapiens with 6 samples.

Results

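The V, D, J and C segments of the T-cell receptor genes were followed in RNA sequencing of the human T-lineage leukaemia line KARPAS-45, known for its KMT2A-FOXO4 fusion. Members were the genes whose symbol starts with TRA, TRB, TRG or TRD followed by V, D, J or C and whose class in GENCODE 29 is a T-cell receptor class. The rule took 195 of the 78932 gene identifiers in the count files, and 37 T-cell receptor pseudogenes were kept apart. The alpha locus held 102 of the members (45 V, 56 J and 1 C), the beta locus 65 (48 V, 1 D, 14 J and 2 C), the gamma locus 16 (9 V, 5 J and 2 C) and the delta locus 11 (3 V, 3 D, 4 J and 1 C). The remaining member, TRBV20OR9-2, is a copy of a beta V segment outside the locus, on chromosome 9. Of the 195 members, 116 had 0 reads in all 6 libraries.

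A T-cell receptor gene is assembled in each developing T cell. The RAG recombinase joins a V segment to a J segment, with a D segment between them in the beta and delta loci, and the DNA between the joined segments is cut out or inverted. The primary transcript then runs from the joined V segment to a C segment, and splicing removes what lies between the joined J and the C. A thymocyte that has assembled a beta chain first pairs it with the invariant pre-TCR alpha chain, encoded by PTCRA, and an alpha chain takes its place later. The delta segments lie inside the alpha locus, so that an alpha join removes them from that chromosome.

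The 6 libraries formed 2 groups of 3, all from bone-marrow derived leukemic blasts of this line, and both groups are listed as untreated. The control libraries came from cells of wild type genotype. The MEF2C-OE libraries came from cells given a lentivirus that drives the transcription factor gene MEF2C from the EF1A promoter with a linked mCherry, and mCherry-positive cells were sorted 120 hours after transduction. The sources used here do not say if the control cells carried any vector or went through a sort. The labels call the replicates technical, and each p-value therefore covers no more than the spread among these libraries. Each library held 48218497 to 56890745 reads assigned to genes. MEF2C had 10, 1 and 0 reads in the control libraries and 40, 29 and 41 in the MEF2C-OE libraries. Whether these counts include reads of the lentiviral MEF2C was not tested. Between 0.287% and 0.293% of assigned reads fell on T-cell receptor segments in the control libraries, against 0.240% to 0.244% in the MEF2C-OE libraries.

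Most of these reads lay on a few segments, whose sequences are given first because the results turn on them. Sequences are those of GENCODE 29 on GRCh38, 5′ to 3′ on the coding strand, and not the line's own junctions, which gene counts do not hold. For the leading V segments the last 48 bases are shown, next to the point where a J would be joined. Capitals mark the last in-frame cysteine codon, the conserved residue with which the third complementarity-determining region begins. The coordinates are those of the whole gene, on the plus strand except for the gamma segments.
TRBV20-1, chr7:142626649-142627399: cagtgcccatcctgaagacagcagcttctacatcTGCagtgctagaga
TRBV5-1, chr7:142320677-142321544: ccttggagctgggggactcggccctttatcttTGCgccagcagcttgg
TRAV8-2, chr14:21846537-21847221: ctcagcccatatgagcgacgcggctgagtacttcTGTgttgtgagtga
TRGV10, chr7:38299811-38300322: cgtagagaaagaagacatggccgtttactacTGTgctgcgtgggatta
TRGV9, chr7:38317017-38318861: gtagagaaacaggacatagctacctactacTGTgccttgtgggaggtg

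The J segments that passed the count filter are shown whole. Capitals mark TTTGG or TTCGG, letters that can encode the start of the Phe-Gly motif at the other end of that region, searched on the coding strand only. Of all 79 J segments, 74, or 93.7%, hold these letters, and in the second beta J cluster 7 of 8 do. The exception is TRBJ2-2P.
TRBJ2-1, chr7:142796365-142796414: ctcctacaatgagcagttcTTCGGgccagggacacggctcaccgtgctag
TRBJ2-2, chr7:142796560-142796610: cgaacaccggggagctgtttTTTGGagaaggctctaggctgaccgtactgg
TRBJ2-2P, chr7:142796697-142796742: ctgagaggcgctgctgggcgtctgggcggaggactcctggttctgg
TRBJ2-3, chr7:142796847-142796895: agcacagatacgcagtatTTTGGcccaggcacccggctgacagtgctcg
TRBJ2-4, chr7:142796998-142797047: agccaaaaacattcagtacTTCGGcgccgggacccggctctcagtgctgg
TRBJ2-5, chr7:142797119-142797166: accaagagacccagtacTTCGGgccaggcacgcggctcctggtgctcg
TRBJ2-6, chr7:142797239-142797291: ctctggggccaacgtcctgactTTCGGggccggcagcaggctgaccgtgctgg
TRBJ2-7, chr7:142797456-142797502: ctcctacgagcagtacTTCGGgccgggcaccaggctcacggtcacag
TRAJ3, chr14:22543179-22543240: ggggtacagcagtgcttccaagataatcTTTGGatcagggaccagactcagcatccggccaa
TRAJ2, chr14:22544071-22544136: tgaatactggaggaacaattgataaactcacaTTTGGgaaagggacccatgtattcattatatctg
TRAJ1, chr14:22545037-22545098: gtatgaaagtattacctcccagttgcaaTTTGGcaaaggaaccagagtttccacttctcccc
TRGJ2, chr7:38253380-38253429: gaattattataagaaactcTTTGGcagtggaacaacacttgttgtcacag

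The 2 beta C segments are close copies. Their first 60 bases differ at 3 positions, in capitals, and their annotated transcripts match at 88.1% of 726 aligned bases, with a longest identical run of 173 bases.
TRBC1, chr7:142791694-142793368: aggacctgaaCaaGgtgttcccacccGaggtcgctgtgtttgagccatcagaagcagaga
TRBC2, chr7:142801041-142802748: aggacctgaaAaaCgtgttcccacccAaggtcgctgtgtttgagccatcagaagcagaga

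The beta locus carried 82.8% of all reads on the segments, the gamma locus 12.6% and the alpha locus 4.54%. Beta segments together had 132465, 128819 and 120404 reads in the control libraries and 109765, 96812 and 116027 in the MEF2C-OE libraries. Gamma segments had 21469, 19996 and 19644 reads against 16009, 14025 and 16303, and alpha segments 7749, 7009 and 6727 against 5960, 4936 and 6201. No read was counted on any of the 11 delta segments in any library. The order beta, gamma, alpha was the same in each of the 6 libraries.

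In CPM, the reads of a gene relative to the TMM-scaled size of its library, each of the 3 loci with reads was lower in every MEF2C-OE library than in any control library. The beta sum was 2392 ± 41.7 CPM in control and 2005 ± 21.9 CPM in MEF2C-OE (SD, n = 3), a ratio of 0.838. The gamma sum was 383 ± 3.90 against 288 ± 2.86 CPM, a ratio of 0.753. The alpha sum was 135 ± 3.41 against 106 ± 4.01 CPM, a ratio of 0.789. A sum over chosen genes was given no test. In bulk RNA, fewer cells that transcribe a segment and less RNA per cell cannot be told apart.

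**Figure D1:**
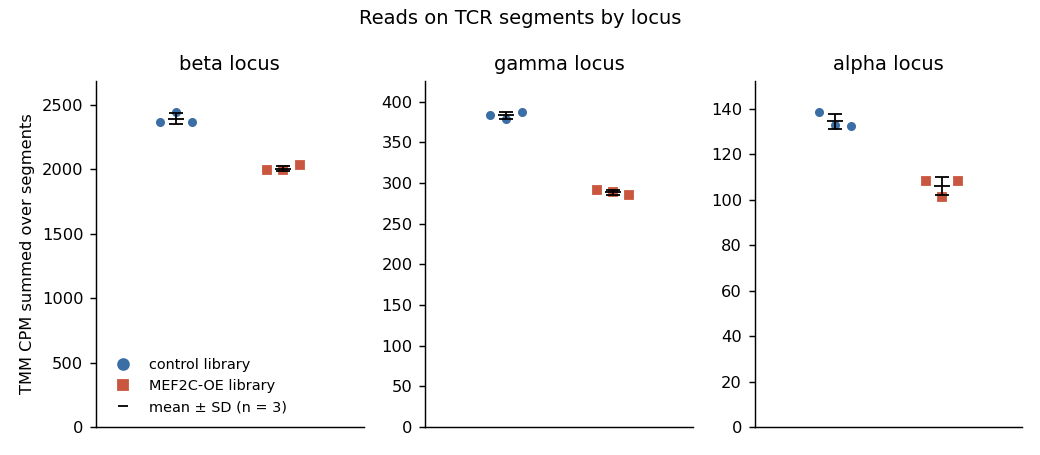
CPM summed over the segments of the beta, gamma and alpha loci, with 1 point for each library and the mean ± SD of each group of 3. Each vertical axis starts at 0 and has its own scale. The MEF2C-OE libraries sit at 1990.4 to 2030 CPM for beta, below the control libraries at 2367 to 2440.3 CPM.

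Along the beta locus the reads were concentrated at both ends of a stretch with almost none. TRBV20-1, a functional V segment, carried 56099, 54850 and 51376 reads in the control libraries and 47713, 43860 and 50339 in the MEF2C-OE libraries. It held 89.5% ± 0.285 of the V reads of its locus over the 6 libraries (SD, n = 6), or 92.2% when reads are divided by exon length. Between TRBV20-1 and TRBC1, a distance of 164 kb, lie 13 further segments: 6 V, the D segment TRBD1 and the 6 J segments of the first cluster. Of these, 12 had 0 reads in all libraries, and TRBV27 had 1 read in 1 library. The 5 pseudogenes in that stretch also had 0 reads. A count of 0 allows up to 3 reads, or 0.0527 to 0.0622 CPM, for counting error only.

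Upstream of TRBV20-1 most segments had some reads. Of the 40 members between the pseudogene TRBV1 and TRBV20-1, 10 had 0 reads in all libraries. TRBV5-1, the V segment with the next most reads, had 5490, 5631 and 5032 reads in control and 4234, 3739 and 4370 in MEF2C-OE. It lies 305 kb upstream of TRBV20-1 and held 8.34% ± 0.617 of the beta V reads (SD, n = 6). The other V segments were far lower, led by TRBV4-1 with 277 to 366 reads and TRBV9 with 270 to 370 reads per library. Per kilobase of exon, TRBV20-1 was 15.4 to 18.5 times as high as TRBV5-1.

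**Figure D2:**
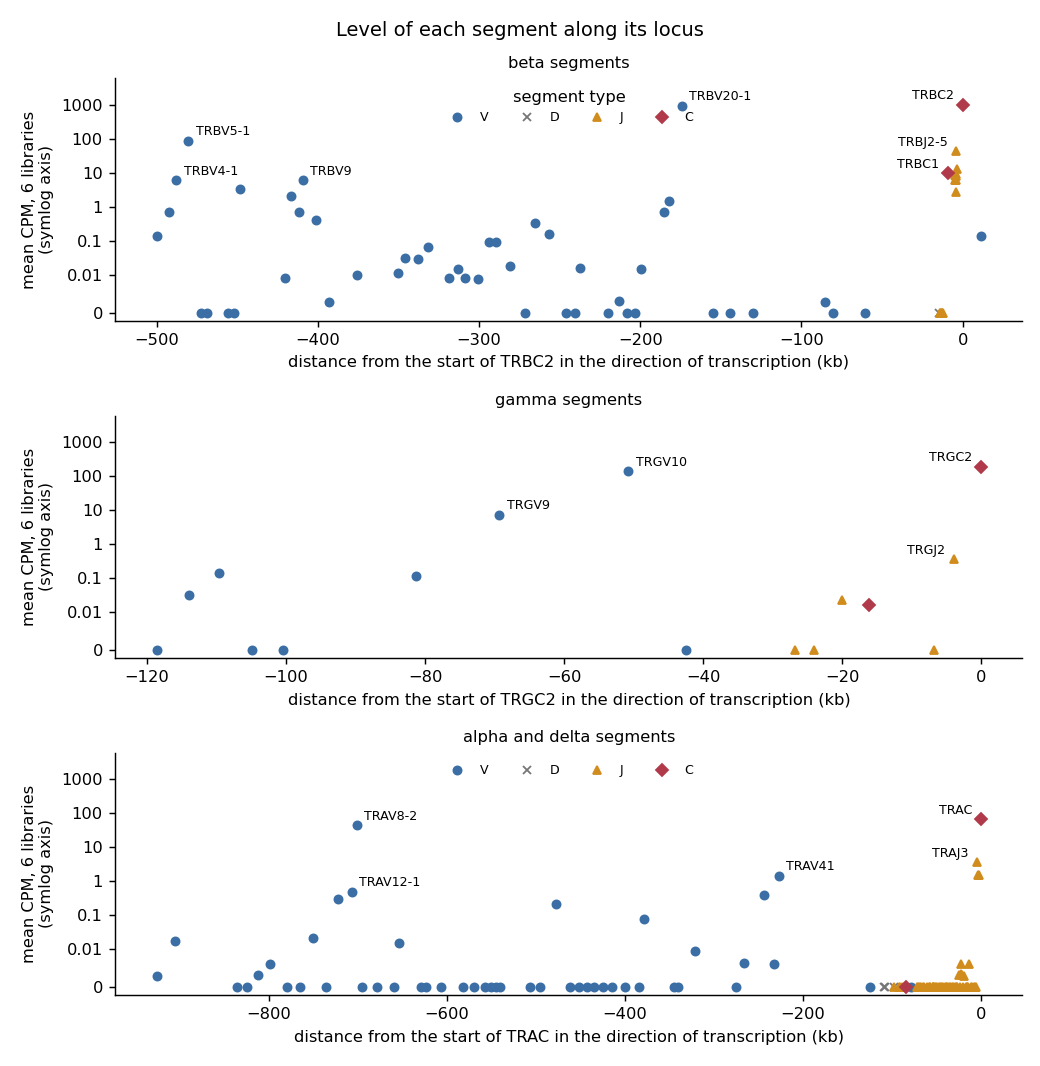
Mean CPM over the 6 libraries of each segment against its distance from the start of the leading C segment, in the direction of transcription of that C segment. The vertical axis is linear below 0.01 CPM and logarithmic above, symbols mark V, D, J and C segments, and pseudogenes are left out. Reads lie on TRBV20-1 and TRBC2 with almost none between TRBV20-1 and TRBC1, and the delta segments in the lowest panel are all at 0.

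Every J segment of the second beta cluster had reads, and TRBJ2-5 led. TRBJ2-5 had 2663, 2398 and 2350 reads in the control libraries and 2080, 2045 and 2217 in the MEF2C-OE libraries. These made up 44.1% ± 3.18 of the beta J reads (SD, n = 6), and 44.7% per kilobase. The next, TRBJ2-7, had 833, 871 and 791 reads against 632, 555 and 630. Both lie between TRBC1 and TRBC2, as do the other 6 segments of the cluster. TRBJ2-6 had 411 to 620 reads per library, TRBJ2-1 350 to 574, TRBJ2-3 345 to 544, TRBJ2-2 230 to 428, TRBJ2-2P 268 to 440 and TRBJ2-4, the lowest, 92 to 219. The 5 segments upstream of TRBJ2-5 thus had reads, as did the 2 between TRBJ2-5 and TRBC2.

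Of the beta C segments, which encode the membrane-anchored part of the chain, TRBC2 took 99.1% ± 0.0614 of the C reads (SD, n = 6). TRBC2 had 62951, 60611 and 56673 reads in control and 51359, 43276 and 54765 in MEF2C-OE. TRBC1 had 564, 608 and 556 reads against 491, 369 and 552. Reads that align equally well to both copies were not counted to either, so the level of each is a lower value and the share rests on the bases where they differ.

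In the gamma locus, which had fewer reads, most of them also lay on 1 V and 1 C segment. TRGC2, the C segment of the second gamma J cluster, had 12523, 11401 and 11354 reads in control and 8553, 7433 and 8939 in MEF2C-OE. TRGV10, a V segment that is known as an open reading frame with a faulty leader splice, had 8530, 8201 and 7896 reads against 6957, 6137 and 6947. It held 94.7% ± 0.999 of the gamma V reads (SD, n = 6), and 98.2% per kilobase. TRGV9, the V segment of most circulating gamma-delta T cells, had 372, 371 and 349 reads against 458, 412 and 395, and TRGV3, the next among gamma V segments not annotated as pseudogenes, had 4 to 12 reads per library. TRGJ2 was the J segment with the most reads, yet had only 9 to 27 per library.

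Between TRGV10 and TRGJ2, over 46.4 kb, 6 members had 12 reads in all 6 libraries together. These were 5 reads of TRGC1 and 7 of TRGJ1, the latter all in control replicate 3. In RefSeq the gene TARP overlaps TRGC1, TRGJ1 and TRGJP, and TARP, which the count files also list, had 0 reads. Reads that fit more than 1 gene can be set aside as ambiguous, so the low counts of these 3 segments set no limit on their level. TRGC1 and TRGC2 are 98.9% identical over 965 aligned bases, which makes the split between them uncertain as well. The antisense transcript TRG-AS1 had 1494 to 2042 reads per library and overlaps TRGV1 to TRGV5. The sources used here give no strand setting, and reads of these V segments and of the antisense gene cannot be told apart.

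In the alpha locus the leading segments were TRAV8-2, TRAJ3 and TRAC. TRAC, the only alpha C segment, had 4393, 3963 and 3644 reads in control and 3183, 2717 and 3348 in MEF2C-OE. TRAV8-2 had 2751, 2408 and 2439 reads against 2352, 1855 and 2407, which was 93.7% ± 1.67 of the alpha V reads (SD, n = 6) and 90.1% per kilobase. TRAJ3 had 225, 205 and 202 reads against 180, 159 and 184, or 54.6% ± 5.51 of the alpha J reads (SD, n = 6).

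The stretch between TRAV8-2 and TRAJ3 was nearly empty of reads. It spans 696 kb and holds 96 segments, of which 82 had 0 reads in all libraries, and 470 of its 707 reads lay on TRAV41. Of the 52 J segments between TRAJ61 and TRAJ3, 46 had 0 reads and none had more than 2 in all. TRAJ2 and TRAJ1, the 2 J segments between TRAJ3 and TRAC, did have reads. TRAJ2 had 98, 113 and 100 reads in control and 55, 51 and 65 in MEF2C-OE, and TRAJ1 had 91, 117 and 103 against 59, 56 and 76. Upstream of TRAV8-2, TRAV12-1 led with 11 to 41 reads per library.

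The delta locus gave no read. TRDC, its C segment at chr14:22462932-22465787, and all V, D and J segments that belong to it alone stood at 0. V segments shared by both chains carry alpha names and are counted with the alpha locus. The antisense transcript TRD-AS1 had 8 to 36 reads per library and overlaps every delta segment other than TRDV1. Reads that fit more than 1 gene can be set aside as ambiguous, and no strand setting is given. The 0 of the overlapped segments therefore sets no limit on their level. The sources used here do not name the release of the authors' annotation, and a later gene that overlaps a segment could also have left its reads uncounted. A gene count does not join a V to a J, so the joined segments themselves were not tested.

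**Figure D3:**
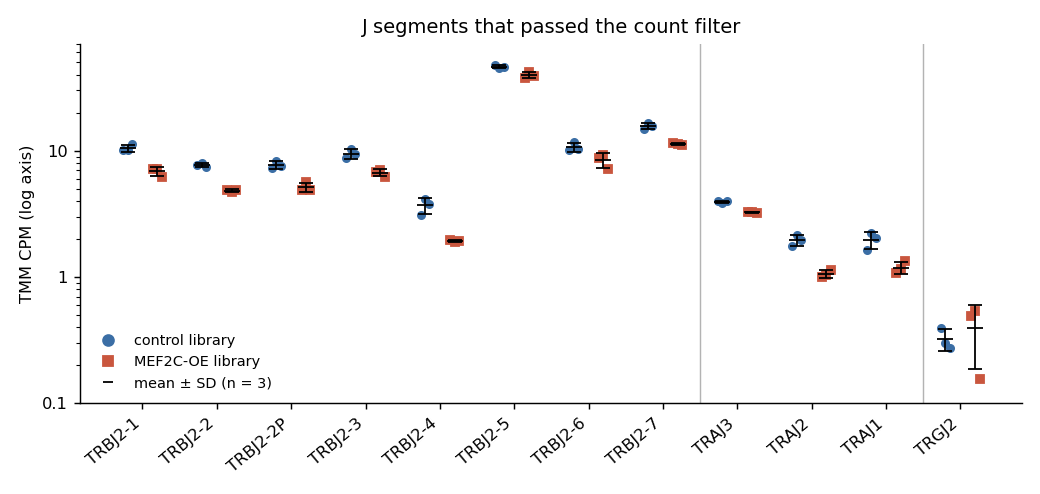
CPM of the 12 J segments that passed the count filter, on a log axis, with 1 point for each library and the mean ± SD of each group of 3. TRBJ2-5 is highest, and the groups do not overlap for any segment other than TRGJ2.

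Levels of different segments were compared per kilobase of exon. TRBC2 stood at 1489.9 ± 22.4 CPM per kb in control and 1223 ± 45.9 in MEF2C-OE (SD, n = 3). TRGC2 stood at 218 ± 4.34 against 153 ± 1.85 CPM per kb, and TRAC at 76.9 ± 3.48 against 58.8 ± 1.45. The C segment of the beta chain was thus 18.5 to 21.1 times as high as that of the alpha chain over the 6 libraries. PTCRA, the pre-TCR alpha chain gene, stood at 68.9 ± 2.78 CPM per kb in control, near TRAC, and at 80.8 ± 1.87 in MEF2C-OE. The tested J segments are only 46 to 66 bases long, which makes their values per kilobase rough.

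The comparison of the groups asked which segments differed between the MEF2C-OE and the control libraries. Segments of all 3 loci with reads were lower in MEF2C-OE, led in amount by TRBC2, TRBV20-1, TRGC2, TRGV10, TRBV5-1 and TRAC. By edgeR's quasi-likelihood test with Benjamini-Hochberg adjustment over 19086 genes, 20 segments fell, 2 rose and 13 of the 35 tested did not pass. Among all genes tested, 20.2% fell and 20.8% rose. The members' 20 of 35 is 57.1%, and their 2 of 35 is 5.71%. Segments of 1 locus can lie on the same transcript, so the 35 are not independent of each other. Beta segments made up 22 of the 35 and 12 of the 20 falls. The difference between these shares was not tested. The groups did not overlap, with MEF2C-OE below, for 21 of the 35, where 24.4% of all genes tested did so. Changes are given as the log2 fold change of MEF2C-OE over control, called the log2 change. The median log2 change of the 35 was -0.31, against -0.01 over all genes tested. After a correction that removes the trend of fold change on GC content and length, 14 fell and 4 rose (TRBV7-3, TRBV9, TRGV9 and TRBJ2-5). The shares over all genes given above are those without this correction, so the corrected counts have no share beside them. No count here includes the 160 members that did not pass the filter on low counts. Of the 35, 31 had at least 10 reads in every library, 3 only in the control libraries and 1 only in the MEF2C-OE libraries. The 3 were TRAV10, TRGJ2 and TRAV39, of which TRAV39 is among the 20 that fell. Near the filter, TRAV10 with 99 reads in all was tested and TRAV22 with 67 was not.

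The C segments fell in each locus with reads. TRGC2 fell from 221 ± 4.40 to 155 ± 1.87 CPM (SD, n = 3), a log2 change of -0.51 (SE 0.025, adjusted p = 1.8e-20). TRAC fell from 75.1 ± 3.40 to 57.4 ± 1.41 CPM, a log2 change of -0.39 (SE 0.038, adjusted p = 2.6e-11). TRBC2 fell from 1129 ± 17.0 to 927 ± 34.8 CPM, a log2 change of -0.28 (SE 0.022, adjusted p = 3.5e-14). These 3 kept the call in all 15 alternative settings, and TRBC2 had -0.17 after GC and length correction. TRBC1 had -0.31 (adjusted p = 0.0063), a call lost without MEF2C-OE replicate 2 (-0.22) and after that correction (-0.16).

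TRBV20-1, TRGV10 and TRAV8-2, the V segment with the most reads in each locus, also fell. Their log2 changes were smaller than those of TRBC2, TRGC2 and TRAC, a difference that was not tested. TRBV20-1 fell from 1017 ± 19.2 to 883 ± 17.3 CPM (SD, n = 3; log2 change -0.20, SE 0.021, adjusted p = 6.6e-11), and by 0.08 after GC and length correction. TRGV10 fell from 154 ± 1.70 to 125 ± 2.74 CPM (log2 change -0.31, adjusted p = 1.5e-12) and TRAV8-2 from 47.6 ± 1.80 to 41.0 ± 2.50 CPM (log2 change -0.21, adjusted p = 2.4e-04). After that correction TRAV8-2 had -0.12. TRBV5-1, the next V segment of the beta locus, fell from 101 ± 4.71 to 76.8 ± 0.261 CPM (log2 change -0.40, adjusted p = 3.4e-13), by more than TRBC2.

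The ratio of the V segment with the most reads to the C segment, per kilobase, was accordingly higher in every MEF2C-OE library. TRGV10 over TRGC2 was 1.38 ± 0.0382 in control and 1.59 ± 0.0499 in MEF2C-OE (SD, n = 3). TRAV8-2 over TRAC was 1.09 ± 0.0546 against 1.23 ± 0.0491, and TRBV20-1 over TRBC2 was 1.65 ± 0.0155 against 1.75 ± 0.0952. Among the V segments, TRBV20-1 over TRBV5-1 was 15.9 ± 0.432 against 18.2 ± 0.365, and TRGV10 over TRGV9 was 76.4 ± 1.41 against 53.8 ± 5.00. The annotated exon length is 1735 bases for TRGV9 and 512 for TRGV10, which makes their ratio larger per kilobase than in reads. The groups did not overlap for these 5 ratios, but with 3 libraries against 3 a two-sided exact permutation test cannot go below p = 0.1, and none was run.

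All 8 J segments of the second beta cluster fell, though the size of the change moved with the GC and length correction. TRBJ2-4 fell from 3.69 ± 0.519 to 1.94 ± 0.0451 CPM (SD, n = 3; log2 change -0.93, adjusted p = 9.2e-06), TRBJ2-2 by 0.67 and TRBJ2-1 by 0.61. These 3 were called lower under all 15 alternative settings, but after GC and length correction they had -0.59, -0.37 and -0.27. TRBJ2-2P fell by 0.59, TRBJ2-3 by 0.50 and TRBJ2-7 by 0.47, and after that correction they had -0.24, -0.17 and -0.12 and no call. TRBJ2-6 fell by 0.35, but had 0.00 after that correction and -0.24 without MEF2C-OE replicate 3, neither called. TRBJ2-5, the leading J, fell from 46.4 ± 1.09 to 39.6 ± 2.21 CPM (log2 change -0.23, adjusted p = 6.6e-05), but was called higher by 0.12 after that correction (adjusted p = 0.032). Only 24 of the 16946 tested genes with a known length are no longer than 66 bases, the length of TRAJ2. The correction caps extreme lengths, so the J segments got the length term of longer genes. It was not fitted at their own length, and their corrected values are uncertain for that reason.

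In the alpha locus TRAJ2 fell from 1.95 ± 0.195 to 1.06 ± 0.0698 CPM (SD, n = 3; log2 change -0.88, adjusted p = 0.0011) and TRAJ1 by 0.72 (adjusted p = 0.0065). The leading J, TRAJ3, had 3.96 ± 0.0697 against 3.25 ± 0.0292 CPM and a log2 change of -0.28 that did not pass the test (adjusted p = 0.098), although its groups did not overlap. It had -0.06 after that correction. The largest falls were of 2 V segments with few reads. TRAV12-1 had 40, 41 and 39 reads in control and 16, 11 and 13 in MEF2C-OE, a log2 change of -1.59 (SE 0.40, adjusted p = 0.0011). TRAV39 had 25, 44 and 25 reads against 9, 9 and 13, a log2 change of -1.61 (SE 0.46, adjusted p = 0.0040), and lost the call without control replicate 2 (-1.28). It had at least 10 reads in every library only in control, where it is high. Its place among the tested segments therefore rests on that group. TRAV41 had -0.38 and did not pass (adjusted p = 0.18).

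The 2 segments that rose were beta V segments upstream of TRBV20-1. TRBV7-3 (chr7:142384329-142384841) had 75, 92 and 50 reads in control and 158, 145 and 135 in MEF2C-OE. Its level was 1.36 ± 0.380 CPM in control and 2.74 ± 0.330 CPM in MEF2C-OE (SD, n = 3), a log2 change of 1.01 (SE 0.20, adjusted p = 6.3e-05), and it kept the call in all 15 alternative settings. TRBV9 (chr7:142391891-142392412) had 320, 270 and 279 reads against 358, 370 and 330, a log2 change of 0.28 (adjusted p = 0.046). It lost the call in 8 of the 15 settings, among them without any single control library and without MEF2C-OE replicate 1 or 2 (0.17 to 0.32). TRBV4-1, further upstream, had 0.03 (adjusted p = 0.86). TRGV9 had 0.20 and did not pass (adjusted p = 0.11), though it was called higher after that correction (0.25) and without MEF2C-OE replicate 3 (0.30).

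**Figure D4:**
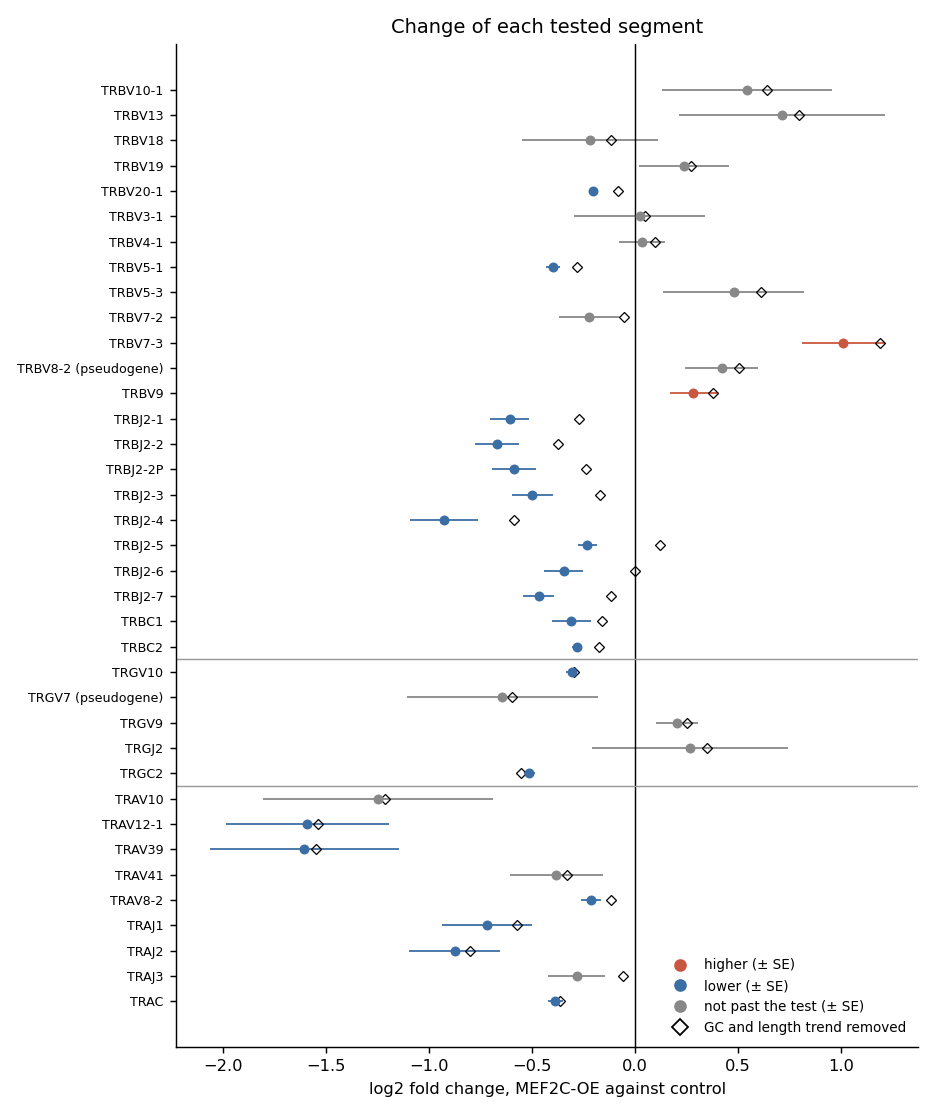
Log2 fold change of MEF2C-OE against control for the 35 segments and 2 pseudogenes tested, with bars of ± 1 SE, grouped by locus (beta, gamma, alpha from top to bottom) and coloured by the call at an adjusted p under 0.05. Open diamonds give the value after GC and length correction, which lies to the right for the beta J segments and crosses 0 for TRBJ2-5.

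Pseudogenes and the copy outside the locus had few reads. Of the 37 pseudogenes, 27 had 0 reads in all libraries and 2 were tested. TRBV8-2, the highest in the beta locus, had 145, 95 and 95 reads in control and 168, 139 and 142 in MEF2C-OE, a log2 change of 0.42 that did not pass (adjusted p = 0.057) but was called in 6 of the 15 settings. TRGV7, the highest in the gamma locus, had 8 to 27 reads per library (log2 change -0.64, adjusted p = 0.29), and TRAV11, the highest in the alpha locus, had 0 to 6. TRBV20OR9-2 is 96.4% identical to TRBV20-1 over 411 aligned bases, with a longest identical run of 58 bases, and had 0 to 6 reads per library.

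The partners of the receptor chains moved both ways. The CD3 chains, which carry the signal of the receptor into the cell, all fell. CD3D had 32391, 31002 and 29055 reads in control and 24110, 19385 and 25143 in MEF2C-OE (log2 change -0.44), and CD247, the zeta chain gene, had -0.47. CD3G and CD3E had -0.21 and -0.11. PTCRA rose from 80.5 ± 3.24 to 94.3 ± 2.19 CPM (SD, n = 3; log2 change 0.23, adjusted p = 3.2e-07), and by 0.44 after GC and length correction. TRAT1, an adaptor of the receptor complex, rose by 0.56. PTCRA over TRAC, per kilobase, was 0.897 ± 0.0693 in control and 1.37 ± 0.0595 in MEF2C-OE. The groups did not overlap for this ratio, which was not tested.

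Lists of coreceptors, proximal signalling, recombination and locus regulators, together with the CD3 list, held 84 genes found. Of the 77 tested, 27 were called higher, 31 lower and 19 neither, and their median log2 change was 0.03. Over all genes tested 20.8% were called higher and 20.2% lower, with a median of -0.01. The same shares stand beside the counts of each list below, and no list was tested against them. After GC and length correction 12 of the 77 had the opposite sign, of which ATM and CSK were called in opposite directions with and without it. Of 7 coreceptor genes tested, CD8B and CD4 rose by 0.24 and 0.22 and 5 did not pass. After that correction CD8B and CD4 had 0.36 and 0.32, and CD6, CD5 and CD8A were called higher too (0.28, 0.18 and 0.08). CD28 and ICOS were called neither with nor without it. CD4 lost the call without control replicate 2 (0.21) or MEF2C-OE replicate 3 (0.16). In the signalling list 17 of 32 fell and 9 rose. The adaptor gene LAT had 562, 614 and 526 reads in control and 281, 181 and 263 in MEF2C-OE (log2 change -1.25), TXK, a kinase gene, had -0.59, the kinase gene FYN rose by 0.50 and PAG1 by 0.54 (by 0.33 after that correction). CSK, a kinase gene that restrains LCK, had -0.10, and 0.11 after that correction. TXK lost the call in 6 of the 15 settings, among them without control replicate 3 (-0.41) or MEF2C-OE replicate 1 (-0.56) or 3 (-0.52).

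Recombination genes were 6 higher, 5 lower and 4 not past the test of 15 tested. DNTT, which adds bases without a template at the junctions, fell from 49.6 ± 2.79 to 34.6 ± 0.754 CPM (SD, n = 3; log2 change -0.52). RAG1, the catalytic partner in the recombinase that cuts the segments, had 45, 40 and 23 reads in control and 50, 87 and 49 in MEF2C-OE. Its log2 change of 0.80 (adjusted p = 0.035) was lost in 6 of the 14 settings that tested it, among them without control replicate 3 (0.59) or MEF2C-OE replicate 2 (0.39) and after GC and length correction (0.68). The end-joining genes PRKDC, XRCC4 and ATM had 0.37, 0.19 and 0.11, PAXX, XRCC6, LIG4 and XRCC5 had -0.37, -0.12, -0.10 and -0.08, and all 7 were called. ATM was called lower after that correction (-0.16). With it PRKDC had 0.16, PAXX -0.16, XRCC6 -0.07 and LIG4 -0.20, all still called. XRCC4 lost the call in 7 of the 15 settings, among them that correction (0.14) and without any single control library or MEF2C-OE replicate 1 (0.12 to 0.21), and LIG4 without control replicate 1 (-0.06). HMGB1 and HMGB2, cofactors of the recombinase, rose by 0.13 and 0.09, and after that correction had 0.01 (not called) and 0.14. DCLRE1C, NHEJ1, POLL and POLM did not pass, with 0.08, 0.09, 0.05 and -0.07. After that correction POLM was called higher (0.12).

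Of 17 tested regulators of the enhancers and loci 8 rose and 5 fell. After GC and length correction BCL11B and IKZF1 (-0.01 and 0.02) were no longer called higher, nor TCF7 (-0.01) lower. RUNX3 and TCF3, which had not passed, were then called higher (0.17 and 0.15). STAT5A fell from 33.5 ± 1.04 to 12.5 ± 0.854 CPM (SD, n = 3), GATA3 fell by 0.67, STAT5B by 0.31 and TCF12 rose by 0.49. Of the genes next to the loci, 10 of 18 had 0 reads and 5 were tested. EPHB6, beside the beta locus, fell by 0.28 (by 0.12 after that correction) and SALL2, beside the alpha locus, by 0.19. DAD1, downstream of TRAC, had -0.07, ABHD4 had 0.24 and STARD3NL, beside the gamma locus, had 0.04 (-0.01 after that correction), none of which passed.

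The T-cell markers were present, with all 10 tested and a summed level of 5011 to 5066 CPM in control and 4479.6 to 4609 CPM in MEF2C-OE. Of these 7 fell, the CD3 chains given above among them, 1 rose and 2 did not pass, and CD2 had -0.68. After GC and length correction LCK and TCF7 (0.03 and -0.01) were no longer called lower, nor BCL11B (-0.01) higher. CD5 was then called higher (0.18). The list's median log2 change was -0.13, and -0.04 after that correction. Defining markers of other lineages were at 0 in all libraries: MS4A1, CD22 and VPREB1 of B cells, NCAM1, NCR1 and FCGR3A of NK cells, CD33 and FCGR1A of myeloid cells, HBB, ALAS2 and AHSP of erythroid cells, EPCAM and VWF of epithelium and endothelium. The B-cell list summed to 13.0 to 15.3 CPM in control and 13.1 to 14.4 in MEF2C-OE, of which CD79A made up most. Of its 4 genes tested 1 rose, 1 fell and 2 did not pass. IGLL1, which encodes a surrogate light chain component of pre-B cells, had 14, 22 and 14 reads in control and 71, 65 and 69 in MEF2C-OE (log2 change 2.02, adjusted p = 1.8e-06) and kept the call in all 15 settings. CD79B had -0.56 (adjusted p = 0.046), a call lost in 12 of 15 settings. The NK-cell list summed to 11.6 to 12.8 against 11.2 to 12.3 CPM. Of its 4 genes tested, KLRD1 rose, with 5 to 9 reads in control and 16 to 25 in MEF2C-OE (log2 change 1.36, adjusted p = 0.044), a call lost in 11 of the 14 settings that tested it. KLRD1 had at least 10 reads only in the MEF2C-OE libraries, where it is high. Its place among the tested genes therefore rests on that group. The myeloid list summed to 1.51 to 1.86 against 1.20 to 1.24, and the erythroid list to 0.0189 to 0.125 against 0.0206 to 0.236. The stromal and epithelial list summed to 72.9 to 80.9 against 70.5 to 74.7 CPM, nearly all PECAM1, and COL1A1 had -0.83. Of the 6 gamma-delta T-cell markers, SOX4, BLK and ID3 fell by 0.32, 0.60 and 0.83, SOX13 was at 0 and KLRB1 and ZBTB16 had at most 16 reads. That list summed to 2132 to 2214 CPM in control and 1704 to 1764 CPM in MEF2C-OE, and SOX4 made up most of it. The part of these markers in the fall of the segments was not tested.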

How the data were processed

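RNA of 3 control and 3 MEF2C-OE libraries of KARPAS-45 was extracted with TRIzol and sequenced from TruSeq libraries, per the labels' protocols. The deposited values are counts of reads per gene, not normalized, made by the authors with Trim Galore, STAR and HTSeq on hg38, per the submitters' processing notes. Versions, annotation release, counting mode and strand setting are not named in the sources at hand. The files' 5 summary lines stayed out of library sizes. Ambiguous reads made up 3.31% to 3.46% of their total and reads without a unique alignment 4.03% to 4.68%, and neither kind was counted to genes.

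Symbols were found for 61481 of 78932 identifiers, and classes, positions, lengths and sequences came from GENCODE 29 (GRCh38). RefSeq (GRCh38.p14) gave the overlap with TARP. The 2 symbols that matched the name rule without a T-cell receptor class, TRADD and TRBV11-2, were left out. Members and gene lists were chosen with earlier results of these data known.

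Counts were tested in R 4.3.3 with edgeR 4.0.16 (filterByExpr, TMM, robust quasi-likelihood test, Benjamini-Hochberg adjustment over 19086 genes, called at an adjusted p under 0.05). The coefficient of variation between libraries was 3.67%, and replicates of a group differed beyond counting error (chi-square per degree of freedom 3.02 to 4.88). Alternatives covered scaling, count filter, DESeq2 1.42.0, limma 3.58.1 (voom), a replicate block, a GC and length correction (splines of 5 degrees of freedom, both properties known for 88.8% of genes tested) and each library left out. Sequences were aligned with Biopython 1.88, and figures drawn with matplotlib 3.10.9. Named genes were each C segment, the 3 V, 2 D and 3 J segments of highest mean CPM per locus, each segment called, the highest pseudogene per locus, and of each list up to 4 called genes of largest change at a mean of 1 CPM or more, with every tested gene of the CD3, recombination and neighbour lists. Others named, such as TRBV27, TRAV10, TRAV22, CSK, CD79A, IGLL1, KLRD1, PECAM1 and the markers at 0, were chosen after their values were seen.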

Additional observations from a re-analysis of the deposited data

How the results depend on the processing

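The 20 segments that fell numbered 14 to 21 and the 2 that rose 1 to 4 over the 15 alternative settings. The shares over all genes tested are given for the main test only, so these counts are not set against a share. The count of segments that rose was 1 with no count filter, with DESeq2 and with limma-voom, 4 with the GC and length trend removed, 4 with that trend removed together with the replicate block, and 1 to 3 when 1 library was left out. Of the 22 called segments, 14 kept call and direction wherever they were tested, 7 lost the call at least once and 2 changed sign, TRBJ2-6 among both. With the GC and length trend removed, 2 of the 35 segments, 12 of the 77 pathway genes and 4 of 23 further marker and neighbour genes had the opposite sign. Among them were 0.12 for TRBJ2-5, 0.00023 for TRBJ2-6, -0.16 for ATM, 0.12 for POLM and 0.11 for CSK. With the block added to that correction the first 4 of these were 0.12 for TRBJ2-5, 0.0014 for TRBJ2-6, -0.16 for ATM and 0.12 for POLM. The cause was not tested. Pathway genes stayed at 30 or 31 lower and 24 to 29 higher. Without any 1 library the log2 ratio of the locus sums was -0.36 to -0.31 for alpha, -0.26 to -0.24 for beta and -0.42 to -0.40 for gamma. Per kilobase of exon the shares of TRAV8-2, TRBV20-1 and TRGV10 moved to 90.1%, 92.2% and 98.2%.

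Libraries with the same number did not deviate together (Pearson r across genes 0.0177, -0.0246 and -0.00445), so the numbers were not read as pairs. With the replicate block 21 segments fell and 2 rose. A count of 0 in a library allows an expected count of up to 3 reads, for counting error only. Reads set aside as ambiguous or multiply aligned limit the segments with close copies.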
